A study of Mus musculus with 100 samples.

Results

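The genes described here are 10 loci of the Toll-like receptor (TLR) signalling machinery: the adaptors Myd88, Ticam1, Ticam2 and Tirap, the kinases and pseudokinases Irak1, Irak2, Irak3 and Irak4, and the TNF receptor-associated factors Traf1 and Traf3. In each of 15 tables of chromatin immunoprecipitation sequencing (ChIP-seq) tags, every region whose nearest annotated gene start belonged to 1 of these genes was taken, which gave 538 regions of 610301 in all. The rule used gene names and no measured value. Nearness to a start assigns a region to a gene and is no evidence that the region acts on it.

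The study profiled mouse bone marrow-derived macrophages (BMDMs) and osteoclast precursors, with 100 samples in 50 groups of 2, and 70 libraries with tag counts were analysed. KLA (Kdo2 lipid A), a bacterial lipopolysaccharide component that activates TLR4, was given for 6 h and compared with vehicle (Veh). In wild-type (WT) BMDMs the 8 factors profiled were the corepressor NCoR, its partner deacetylase HDAC3, the coactivator PGC1b, the kinase ERK1, the acetyltransferase p300, the NF-κB subunit p65, the AP-1 subunit Fosl2 and the macrophage lineage factor PU.1. H3K27ac, the acetylated form of lysine 27 of histone H3 that marks active regulatory regions, was measured in 3 experiments. The first compared WT (NCoR flox/flox) with NCoR knockout cells (NKO, NCoR flox/flox LysMCre), each with Veh and KLA. The second compared Veh and KLA in Pgc1b flox/flox cells with and without LysMCre, a Cre recombinase expressed in myeloid cells. The third, in cells labelled WT, compared DMSO with Veh, DMSO with KLA, and KLA with RGFP966, an inhibitor of HDAC3. An ERK inhibitor (ERKi) was combined with KLA for NCoR and for PGC1b, also in cells labelled WT. For osteoclast precursors, labelled WT as well, ERK1 and p300 were profiled at day 0 and day 4. By the study's methods, precursors grown in M-CSF were given RANKL, the ligand that drives osteoclast differentiation, up to day 4. Time in culture and RANKL therefore cannot be told apart. The study's methods describe the ChIP as done in biological replicates, without saying whether the 2 libraries of a group came from separate cultures or mice, and p-values measure only the spread between these libraries.

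Ligand-bound TLRs recruit adaptors that carry a TIR domain. MyD88, brought to TLR4 by TIRAP, assembles the IRAK kinases into the Myddosome, whereas TRIF (encoded by Ticam1), brought to TLR4 by TRAM (encoded by Ticam2), signals from endosomes towards TRAF3 and interferon genes. IRAK3 (IRAK-M) restrains signalling from the Myddosome, TRAF1 is a target and modulator of NF-κB signalling, and both are known as inducible genes in macrophages.

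Values are tags per 10 M sequenced tags of the library, as counted by the authors. A region was called changed at an adjusted p under 0.05 (quasi-likelihood test of edgeR, Benjamini-Hochberg over all regions of the table) with more than a 2-fold change, and errors of log2 fold changes are standard errors from that fit. Regions of different factors whose neighbouring centres lay within 500 bp were joined to a site, named by its gene and its distance in kb from the gene start, positive downstream. ChIP-seq of a whole culture cannot tell more bound cells apart from more binding per cell.

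Sequences are shown for 4 distal sites where many factors changed together and for the promoters of Myd88, where 4 factors rose after KLA, and Irak1, where Fosl2 fell. They are the plus strand of the mouse genome (GRCm38, mm10, from RefSeq), 201 bases around the centre of the p65 region for distal sites and the 200 bases upstream of the annotated start for promoters. The sites are Irak3 +10.2 kb (chr10:120191286-120191486, intron 1), Traf1 +3.5 kb (chr2:34958154-34958354, intron 4), Traf1 +7.9 kb (chr2:34953822-34954022, intron 6), Irak2 +23.2 kb (chr6:113661539-113661739, intron), and the promoters of Myd88 (chr9:119340019-119340218) and Irak1 (chrX:74023922-74024121). Capitals mark matches on either strand to the NF-κB consensus, the AP-1 element TGANTCA, the PU.1 core GAGGAAG or the interferon response core (GAAA, any 2 bases, GAAA).
Irak3 +10.2 kb: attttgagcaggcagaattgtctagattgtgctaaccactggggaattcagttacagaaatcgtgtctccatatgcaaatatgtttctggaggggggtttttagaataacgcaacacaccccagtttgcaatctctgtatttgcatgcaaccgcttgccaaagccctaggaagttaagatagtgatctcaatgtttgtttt
Traf1 +3.5 kb: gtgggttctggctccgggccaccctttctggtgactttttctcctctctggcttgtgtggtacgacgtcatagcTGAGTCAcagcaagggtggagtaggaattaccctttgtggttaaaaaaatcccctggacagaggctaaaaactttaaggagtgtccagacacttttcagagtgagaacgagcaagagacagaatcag
Traf1 +7.9 kb: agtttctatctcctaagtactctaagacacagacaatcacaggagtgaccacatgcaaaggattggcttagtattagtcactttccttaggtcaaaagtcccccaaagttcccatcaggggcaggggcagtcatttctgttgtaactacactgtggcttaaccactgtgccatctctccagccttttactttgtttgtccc
Irak2 +23.2 kb: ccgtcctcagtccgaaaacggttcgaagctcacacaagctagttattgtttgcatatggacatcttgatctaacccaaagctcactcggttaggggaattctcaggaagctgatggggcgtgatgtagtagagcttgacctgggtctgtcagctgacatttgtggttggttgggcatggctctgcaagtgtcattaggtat
Myd88 promoter: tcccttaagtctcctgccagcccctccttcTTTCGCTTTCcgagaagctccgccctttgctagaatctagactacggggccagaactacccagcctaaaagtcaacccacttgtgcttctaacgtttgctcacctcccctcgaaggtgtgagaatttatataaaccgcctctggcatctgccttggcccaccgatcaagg
Irak1 promoter: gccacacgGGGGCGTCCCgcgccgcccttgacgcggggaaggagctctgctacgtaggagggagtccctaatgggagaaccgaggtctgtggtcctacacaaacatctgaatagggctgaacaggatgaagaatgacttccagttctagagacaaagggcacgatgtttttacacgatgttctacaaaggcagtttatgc
The window at Traf1 +3.5 kb held 1 AP-1 element, the Myd88 promoter held 1 interferon response core and the Irak1 promoter held 1 NF-κB consensus. The 201 bases around the p65 regions of these promoters reach past the starts and hold further matches, 2 to the NF-κB consensus at Myd88, 1 base apart, and 1 AP-1 element at Irak1. No match to these letters lay in the windows at Irak3 +10.2 kb, Traf1 +7.9 kb or Irak2 +23.2 kb. Over the p65 regions, the NF-κB consensus occurred in 5 of 50 regions of the 10 genes (10%) and in 9.87% of all 52624 regions searched. The AP-1 element occurred in 10 of the 50 (20%) against 21.7%, the PU.1 core in 10 (20%) against 22%, and the interferon response core in 3 (6%) against 5.9%. Over the NCoR regions the shares were likewise close to those of all 55038 regions searched, at 8% against 7.4% for the NF-κB consensus and 22% against 21% for AP-1.

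KLA raised the binding of at least 1 factor at 7 of the 10 genes, most often at Irak3 and Traf1. Over the 8 factors, 354 regions were tested, of which 161 were called higher after KLA and 5 lower. The shares over all regions are given by factor below. In each of the 161 both KLA libraries exceeded both Veh libraries, which a call with 2 libraries a group makes likely. Irak3 and Traf1 held 107 of the 161 (66.5%) and 46.9% of the regions tested. Irak3 had 58 of 83 regions called higher, Traf1 49 of 83, Irak2 25 of 70, Ticam2 16 of 40, Myd88 5 of 16, Traf3 5 of 25 and Ticam1 3 of 14. No region of Irak1 (7 tested), Irak4 (10) or Tirap (6) was called higher. At Irak3 49 of the rises were annotated to introns and 8 to the promoter, and at Traf1 27 to introns and 20 to intergenic sequence. Of the 161, 132 lay over 2 kb from the start and 106 were annotated to introns, and 137 were also called with TMM scaling, which centres the libraries on the regions themselves.

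By factor, the counts were read against the share of all regions called higher in the same table. For p65, 43 of 50 regions rose, where 57% of all regions did, with a median log2 change of 2.61 against 1.46 over all regions. TMM scaling left 30 higher and 2 lower for p65, whose libraries held 12.7% to 14.4% of their tags in regions with Veh and 34.1% to 37.1% with KLA. For p300, 40 of 63 regions rose (42.1% of all regions) and 2 fell (12.9%), with a median of 1.87 against 0.65. The p300 libraries held 22% to 23.7% of their tags in regions with Veh and 35.3% to 35.5% with KLA, and TMM scaling called 37 of the 42 changes. For HDAC3, 27 of 54 rose (27.5% of all), with a median of 1.07 against 0.27. For NCoR, 17 of 50 rose (23.4% of all) and 1 fell (16.7%), with a median of 0.79 against 0.10. Without 1 library the NCoR count was 11 at its lowest (KLA replicate 1 left out) and the HDAC3 count 15 (either Veh library left out), and those of p65 and p300 were 37 to 44 and 34 to 43 of the regions.

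For PGC1b, 13 of 35 regions rose (16.4% of all regions), with a median of 0.64 against 0.06. For ERK1, 8 of 27 rose (10.3% of all), with a median of 0.86 against 0.26. For Fosl2, 10 of 35 rose (11.4% of all) and 1 fell (4.19%), with a median of 0.99 against -0.14. Without either Veh library of Fosl2 no region of the 10 genes was called and without KLA replicate 1 there were 20, and for ERK1 4 and 3 were called without KLA replicate 1 and 2. For PU.1, 3 of 40 rose (4.53% of all) and 1 fell (21.7%), with a median of 0.06 against -0.41, and TMM scaling gave 5 higher and 0 lower. The PU.1 libraries held 51.6% to 52.8% of their tags in regions with Veh and 41.5% to 41.7% with KLA.

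**Figure D1:**
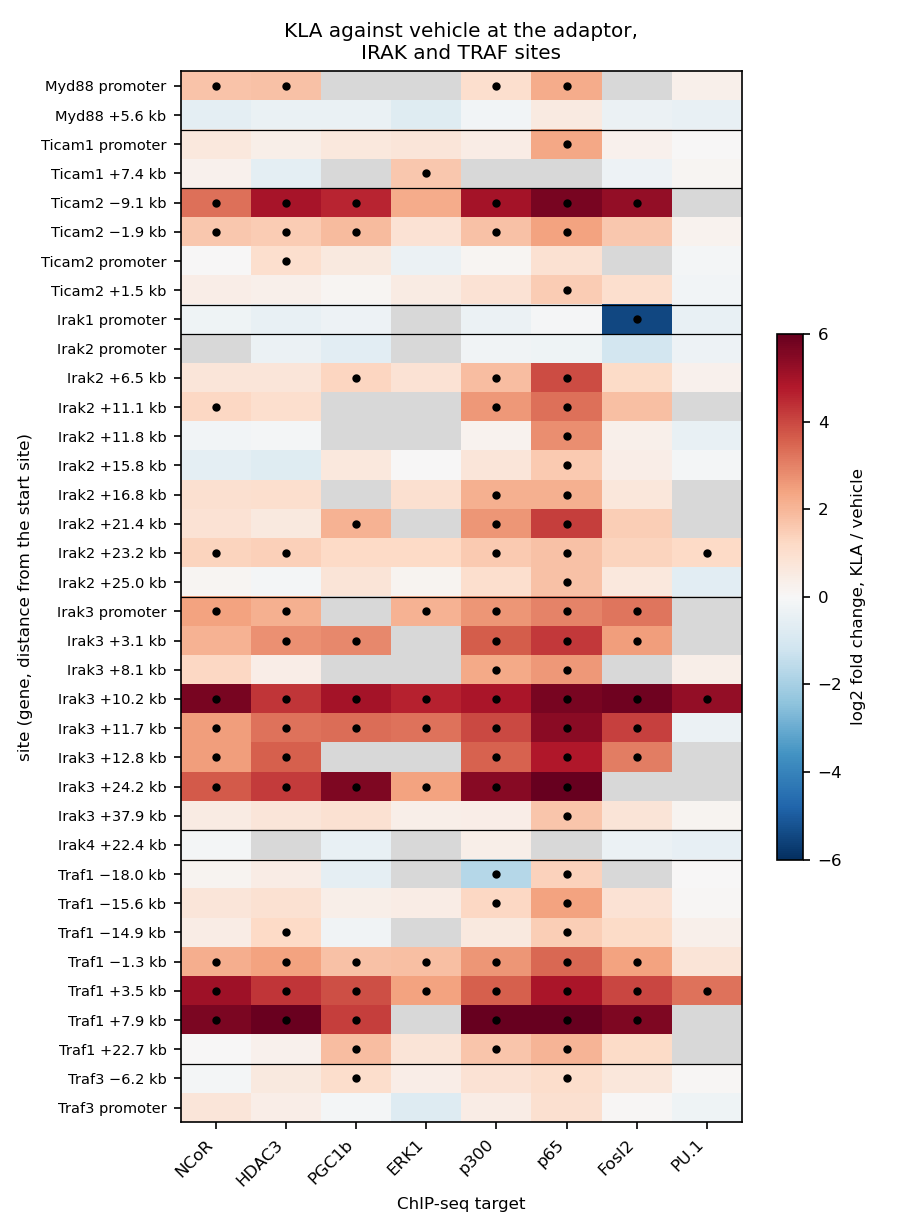
Change after KLA (log2 of KLA over Veh, colour, limited to 6 in either direction) at the 36 of 79 sites where at least 5 factors had a region, with sites as rows and the 8 factors as columns. Dots mark called regions, grey marks no region, and where both Veh libraries held 0 tags the colour is a lower bound. The columns of p65 and p300 hold the most dots and several rows of Irak3 and Traf1 are dotted across most factors.

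The regions called higher had lower median levels with Veh than those not called, with ranges that overlapped. The 17 NCoR regions called higher had a median of 5.38 tags per 10 M with Veh (range 0 to 108) and 74.1 with KLA, whereas the 32 NCoR regions not called had 50.4 (7.72 to 207) and 55.7. For p300 the medians were 7.71 and 73.0 in the 40 regions called higher and 47.5 and 53.3 in the 21 not called, with Veh levels of up to 111 and 143. The 43 p65 regions called higher ranged from 0 to 102 with Veh and from 23.2 to 494 with KLA. The called regions passed a threshold of change, so these levels are a description. Regions were merged over the libraries of a table, so a region without Veh tags is listed because of its KLA libraries. Of the 161 rises, 8 had no Veh tag in either library and 15 had 3 or fewer.

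Among the adaptors, Myd88 gained binding at its promoter. NCoR there had 21.5 and 17.7 tags per 10 M with Veh and 68.0 and 61.6 with KLA (log2 change 1.72 ± 0.36, adjusted p 0.00353). HDAC3 had 23.3 and 24.3 with Veh and 71.5 and 94.8 with KLA (1.78 ± 0.43, adjusted p 0.000164). Both KLA libraries lay above both Veh libraries for each protein. For p65 the values were 18.4 and 39.2 with Veh and 124 and 144 with KLA (2.22 ± 0.35, adjusted p 0.000257). The p300 values were lower, at 19.4 and 20.4 with Veh and 38.4 and 42.7 with KLA (1.02 ± 0.34, adjusted p 0.0161), and that call was lost with TMM scaling. The NCoR call was lost without KLA replicate 1 (adjusted p 0.0601), the HDAC3 call without either Veh library (0.117 and 0.125) and the p300 call without Veh replicate 1 or either KLA library. PU.1 was present at the promoter in both states, with 53.3 and 62.2 with Veh and 73.3 and 67.6 with KLA, and was not called. At +5.6 kb, downstream of Myd88, all 8 factors had a region and none was called, with NCoR at 126 and 124 with Veh and 83.4 and 80.2 with KLA. The log2 change of p65 at that downstream site was 0.52 ± 0.34 (adjusted p 0.196), against the 2.22 ± 0.35 at the promoter.

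Ticam2, which encodes TRAM, had its strongest gains upstream. At -9.1 kb, p65 rose from 0 and 8.39 to 229 and 202 (log2 change 5.69 ± 0.54) and p300 from 2.51 and 5.26 to 119 and 131 (4.99 ± 0.35). HDAC3 had 5.09 and 0 with Veh and 64.5 and 82.5 with KLA (4.94 ± 0.61), and NCoR had 10.8 and 3.53 with Veh and 63.2 and 78.2 with KLA (3.29 ± 0.49). Fosl2 rose from 8.46 and 4.19 to 196 and 295 and PGC1b from 0 and 2.79 to 47.0 and 30.3. All 6 were called, whereas ERK1, at 9.44 and 4.63 with Veh and 28.3 and 36.8 with KLA, was not (adjusted p 0.061). At -1.9 kb the levels were higher from the start. NCoR there had 94.4 and 121 tags with Veh and 336 and 325 with KLA (1.61 ± 0.20, adjusted p 0.000228), the highest NCoR level with KLA among the called regions of the 10 genes. HDAC3 (1.54 ± 0.37), p65 (2.43 ± 0.30), p300 (1.74 ± 0.18) and PGC1b (1.88 ± 0.38) also rose at -1.9 kb. The Ticam2 promoter itself showed little movement, with NCoR at 64.5 and 48.3 with Veh and 53.5 and 59.5 with KLA. HDAC3 at the promoter was called (1.03 ± 0.39, adjusted p 0.0252), but its KLA libraries stood at 52.8 and 134 and the call was lost with TMM scaling, without KLA replicate 2 and without either Veh library (adjusted p 0.335 to 0.52). At -1.9 kb the HDAC3 call was lost without either Veh library (0.21 and 0.335) and the PGC1b call without Veh replicate 1 (0.0702).

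Ticam1, which encodes TRIF, was occupied by all 8 factors at its promoter and p65 was the 1 factor called there. The p65 values were 37.7 and 38.2 with Veh and 169 and 214 with KLA (log2 change 2.33 ± 0.26, adjusted p 2.6e-05). NCoR at the Ticam1 promoter had 87.2 and 106 with Veh and 140.1 and 158 with KLA (0.63 ± 0.22), which was above the Veh libraries but under the 2-fold limit. At +7.4 kb ERK1 rose from 29.9 and 31.2 to 104 and 83.0 (1.61 ± 0.40, adjusted p 0.0242), while NCoR, HDAC3, Fosl2 and PU.1 were not called there. The ERK1 call was lost without Veh replicate 2 (adjusted p 0.051) or either KLA library (0.149 and 0.0702). At +3.3 kb p300 was called at a low level, from 0.627 and 2.63 to 12.8 and 9.73. Tirap, which links MyD88 to TLR4, had 6 regions over the 8 factors and none was called in either direction.

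Among the kinases, the pseudokinase gene Irak3 carried the largest group of rises, at 16 of its 18 sites. At Irak3 +10.2 kb in intron 1 all 8 factors were called. NCoR had 0 and 0 tags with Veh and 190.3 and 174 per 10 M with KLA, at least 51.2-fold higher when 3 tags are assumed in each Veh library. This region, like the others below without Veh tags, is listed because of its KLA libraries, so its rise was set by that choice and the fold is a description. HDAC3 rose from 13.1 and 7.19 to 176 and 212 (log2 change 4.27 ± 0.44, adjusted p 2.69e-20). PGC1b rose from 2.94 and 1.86 to 100.5 and 54.3 (4.97 ± 0.51) and ERK1 from 1.57 and 6.94 to 125 and 103 (4.59 ± 0.57, adjusted p 0.004). The Veh libraries of these 4 proteins held 13.1 tags per 10 M or fewer and did not overlap those of KLA.

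The transcription factors followed the same order of samples at Irak3 +10.2 kb. For p65 the values were 14.9 and 3.73 with Veh and 479 and 509.7 with KLA (log2 change 5.69 ± 0.36, adjusted p 9.05e-07). For p300 they were 13.8 and 10.5 with Veh and 376 and 363 with KLA (4.91 ± 0.21, adjusted p 8.28e-11). Fosl2 rose from 5.64 and 6.29 to 263 and 450.1 (5.86 ± 0.89), with its KLA libraries far apart from each other. PU.1, which was called higher in 3 regions of the 10 genes, rose here from 0 and 5.6 to 119.7 and 81.6 (5.26 ± 0.33, adjusted p 4.9e-32).

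**Figure D2:**
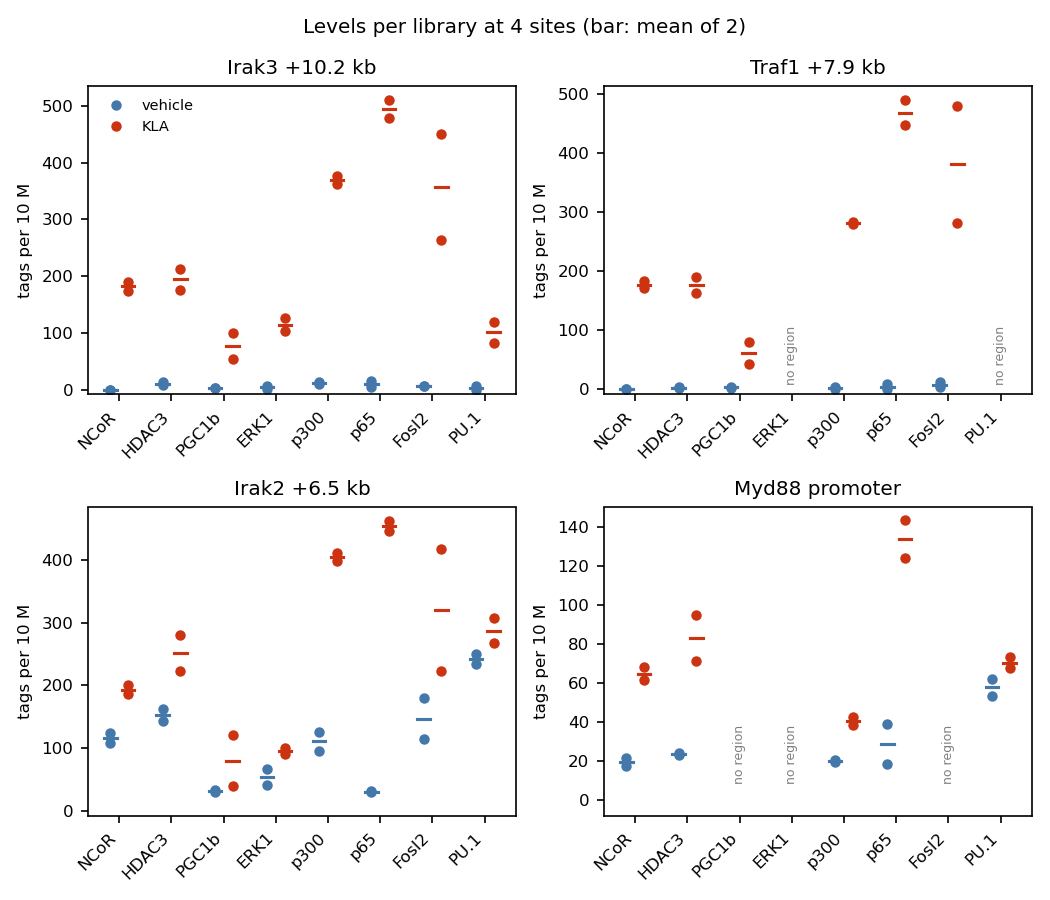
Tags per 10 M in each Veh and KLA library (points, with a bar at the mean of the 2) for the 8 factors at Irak3 +10.2 kb, Traf1 +7.9 kb, Irak2 +6.5 kb and the Myd88 promoter, on a linear axis. At Irak3 +10.2 kb the Veh points of every factor lie at 14.9 or lower and the KLA points at 54.3 or higher, whereas at Irak2 +6.5 kb NCoR and HDAC3 are already high with Veh.

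Other Irak3 sites moved in the same direction with fewer factors. At +24.2 kb, NCoR rose from 3.59 and 3.53 to 47.8 and 46.4 (log2 change 3.68 ± 0.54) and p65 from 0 and 2.80 to 149 and 193. PGC1b had 0.588 and 0.930 with Veh, which is 1 and 2 tags, and 60.1 and 25.7 with KLA. ERK1 was called at +24.2 kb (2.41 ± 0.66, adjusted p 0.0347) but not with TMM scaling, nor without Veh replicate 1 (0.065) or either KLA library (0.0807 and 0.154). Around +11.7 kb, 1 of 3 NCoR regions rose, from 13.1 and 11.8 to 66.4 and 74.0 (2.49 ± 0.39), while the others stayed under the threshold. In the part of that site nearest the start p65 rose from 5.25 and 8.39 to 302 and 280 (5.40 ± 0.31), ERK1 from 9.44 and 6.94 to 78.7 and 78.9 (3.26 ± 0.53) and p300 from 11.3 and 21.7 to 250.1 and 268 (3.98 ± 0.24).

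Near the start of Irak3, NCoR rose from 13.1 and 18.8 to 84.2 and 87.8 (log2 change 2.42 ± 0.36) and HDAC3 from 16.7 and 21.6 to 80.3 and 89.6 (2.13 ± 0.43). For p65 the values were 26.3 and 29.8 with Veh and 212 and 233 with KLA (2.99 ± 0.25). Fosl2, ERK1 and p300 rose at the promoter as well, ERK1 not with TMM scaling. Without Veh replicate 2 or either KLA library the ERK1 call at the promoter was lost (adjusted p 0.0664 to 0.23), as was that of HDAC3 without Veh replicate 1 (0.0796). Further into the gene, at +35.6 kb, NCoR rose from 5.97 and 3.53 to 46.2 and 34.6 (3.06 ± 0.56) and HDAC3 from 2.18 and 4.42 to 46.3 and 47.4 (3.74 ± 0.64). At +37.9 kb every factor was bound with Veh, PU.1 most strongly at 232 and 293, and p65 alone was called (1.65 ± 0.21, lost with TMM scaling). The long noncoding gene Gm38500 starts 540 bp from Irak3, so promoter tags cannot be assigned to 1 of them.

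**Figure D3:**
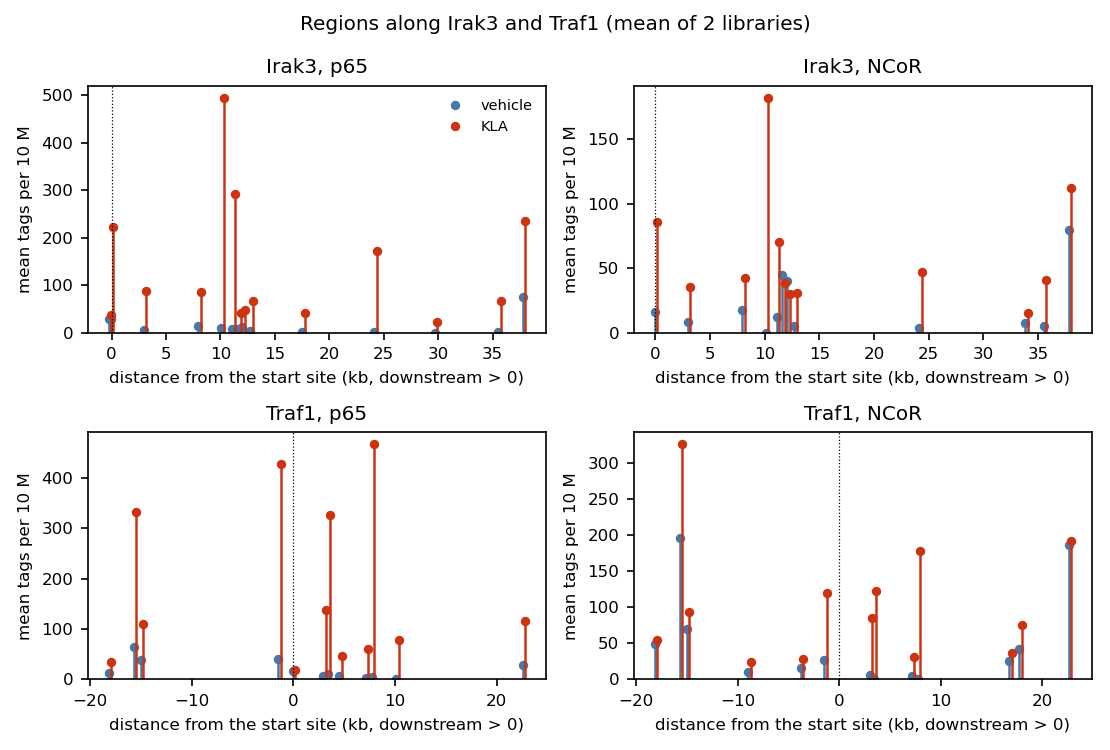
Mean tags per 10 M (vertical axis, mean of 2 libraries, Veh blue and KLA red) of each p65 and NCoR region of Irak3 and Traf1 against its distance from the gene start in kb (horizontal axis). The tallest p65 region of Irak3 with KLA stands at +10.2 kb, with 494, and the KLA values exceed the Veh values over most of both loci.

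Irak2, a kinase of the Myddosome, had rises at 11 of 13 sites, with at most 5 factors at 1 site. At +6.5 kb in intron 1, p65 rose from 28.9 and 30.8 to 446 and 462 (log2 change 3.93 ± 0.22, adjusted p 7.6e-07) and p300 from 126 and 95.3 to 398 and 411 (1.87 ± 0.16, adjusted p 5.63e-08). NCoR was already there with Veh, at 109 and 124, and had 200.1 and 186 with KLA (0.73 ± 0.20), under the 2-fold limit. HDAC3 had 162 and 143 with Veh and 223 and 281 with KLA (0.72 ± 0.37, adjusted p 0.103). PGC1b was called (1.30 ± 0.41, adjusted p 0.0273), with KLA libraries of 120.1 and 39.5 above Veh libraries of 32.9 and 29.8, and the call was lost without either Veh library or KLA replicate 1 (adjusted p 0.129 to 0.49). The site thus differed from Irak3 +10.2 kb in its Veh levels, which for NCoR were 109 and 124 against 0 and 0.

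At Irak2 +23.2 kb, NCoR rose from 39.4 and 33.0 to 98.0 and 86.5 (log2 change 1.35 ± 0.30), HDAC3 from 34.2 and 38.2 to 79.7 and 116 (1.41 ± 0.40) and PU.1 from 36.7 and 47.3 to 89.6 and 104 (1.22 ± 0.17, adjusted p 3.05e-10). The rises of p65 (1.74 ± 0.24, not with TMM scaling) and p300 (1.57 ± 0.19) at that site were smaller than at +6.5 kb. At +21.4 kb p65 went from 6.13 and 33.6 to 339 and 352 (4.14 ± 0.43) and p300 from 56.4 and 36.1 to 290.0 and 291 (2.64 ± 0.20). At +4.5 kb NCoR had 0 and 0 with Veh and 25.1 and 38.7 with KLA, at least 8.97-fold higher on the same floor. The Irak2 promoter was bound by 6 factors and none was called, with p300 at 61.4 and 61.1 with Veh and 53.7 and 53.0 with KLA, whereas p65 was called lower there with TMM scaling. Without either KLA library the NCoR rise at +23.2 kb was not called (adjusted p 0.053 and 0.0877), nor was that of HDAC3 without either Veh library (0.206 and 0.268).

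Irak1 and Irak4, the kinases that act in sequence in the Myddosome, showed no rise. At the Irak1 promoter 7 factors had a region and Fosl2 was lower after KLA, from 39.5 and 40.9 to 0 and 1.17 (log2 change -5.46 ± 1.44, adjusted p 0.00228), a call lost without either Veh library. The p65 values there were 28.9 and 45.7 with Veh and 36.7 and 34.9 with KLA, and NCoR had 41.8 and 30.6 with Veh and 45.4 and 15.9 with KLA, neither of them called. With TMM scaling p65 at the Irak1 promoter was called lower. The miRNA genes Mir718 and Mir5132 start 15 and 323 bp from Irak1. At the Irak4 promoter NCoR fell from 63.3 and 85.9 to 28.4 and 24.2 (-1.51 ± 0.34, adjusted p 0.00498) and p300 from 21.3 and 28.9 to 7.67 and 10.8 (-1.44 ± 0.46, adjusted p 0.0129), with no overlap between the groups. Both calls were lost without either KLA library, with adjusted p of 0.0536 and 0.0892 for NCoR and 0.14 and 0.0623 for p300. PU.1 there had 104 and 96.5 with Veh and 48.4 and 66.9 with KLA (-0.80 ± 0.16), which did not pass the fold limit. Pus7l starts 79 bp from Irak4, so the promoter regions belong to both genes.

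Traf1, an NF-κB target whose product binds other TRAF proteins, had rises at 17 of its 19 sites. At Traf1 +7.9 kb in intron 6, NCoR had 0 and 0 with Veh and 171 and 183 with KLA, at least 49.8-fold higher on the same floor. HDAC3 rose from 1.46 and 3.87 to 164 and 190 (log2 change 5.93 ± 0.51, adjusted p 1.16e-27) and p65 from 0.876 and 8.39 to 447 and 488 (6.66 ± 0.41, adjusted p 8.77e-07). The same site gained p300, from 3.76 and 0.657 to 283 and 280 (6.93 ± 0.32), Fosl2, from 12.7 and 3.15 to 282 and 479 (5.62 ± 0.87), and PGC1b, from 2.94 and 3.72 to 80.8 and 42.3 (4.14 ± 0.51). ERK1 and PU.1 had no region at +7.9 kb.

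At Traf1 +3.5 kb all 8 factors were called in at least 1 region. NCoR had 0 and 0 with Veh and 126 and 119 with KLA in the region nearest +3.5 kb, at least 34.4-fold higher. HDAC3 rose there from 8 and 8.30 to 125 and 200 (log2 change 4.28 ± 0.45), p65 from 15.8 and 5.59 to 292 and 363 (4.91 ± 0.35) and ERK1 from 9.44 and 13.9 to 44.3 and 85.8 (2.44 ± 0.57, adjusted p 0.0202, and 0.153 without KLA replicate 2). PU.1 rose at the neighbouring region from 9.83 and 8.71 to 98.8 and 81.6 (3.26 ± 0.24, adjusted p 1.57e-25). At Traf1 -1.3 kb, 7 factors were called and the Veh levels were higher. There NCoR went from 20.3 and 31.8 to 106 and 133 (2.19 ± 0.32), p65 from 21.9 and 56.9 to 433 and 423 (3.45 ± 0.32) and PU.1, which was not called, from 97.2 and 98.3 to 173 and 161 (0.77 ± 0.12). The single Traf1 region called lower was for p300 at -18.0 kb, from 55.8 and 40.7 to 15.3 and 14.1 (-1.71 ± 0.36).

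Traf3, which acts downstream of TRIF, was bound at its promoter by all 8 factors and none was called. NCoR at the Traf3 promoter had 83.6 and 112 with Veh and 176 and 149 with KLA (log2 change 0.73 ± 0.23), and p65 had 124 and 136 with Veh and 227 and 272 with KLA (0.94 ± 0.21, adjusted p 0.00214), both with KLA above Veh but under the 2-fold limit. Inside the gene at +2.2 kb, p65 rose from 4.38 and 1.86 to 40.7 and 54.0 (3.87 ± 0.59), HDAC3 from 10.2 and 12.7 to 29.9 and 52.7 (1.78 ± 0.56) and p300 from 17.6 and 7.89 to 56.3 and 54.0 (2.10 ± 0.38). The HDAC3 call at +2.2 kb was lost without either Veh library (adjusted p 0.177 and 0.109). At +6.6 kb PU.1 fell from 69.3 and 71.0 to 20.9 and 37.0 (-1.27 ± 0.21, adjusted p 2.61e-08), a call that was lost with TMM scaling. Upstream at -6.2 kb, p65 (1.05 ± 0.22) and PGC1b (1.04 ± 0.37) were called, and with TMM scaling neither was, with the p65 change at -0.18.

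The sites can be counted by how many factors rose. Of 79 sites, 56 had at least 1 called rise and 8 had rises of 6 or more factors, 4 of them at Irak3, 3 at Traf1 and 1 at Ticam2. Joining regions at 200 bp gave 90 sites, 63 with a rise and 9 with 6 or more, and joining at 1000 bp gave 58, 41 and 8. Sites were not counted over all genes, while p65 rose in 57% and p300 in 42.1% of all regions. The site counts here and by gene above are therefore a description. Each of the 8 sites counts a Fosl2 or ERK1 call, and many calls of these factors were lost with 1 library left out, as given above. At 6 of the 8 sites no H3K27ac region had been defined in any of the 3 experiments. The H3K27ac tables cover open chromatin, in 2 of the 3 experiments open chromatin of Veh cells alone. Why these sites lack a region was not tested. Acetylation at these 6 sites is therefore not given in these tables.

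H3K27ac was measured over regions of 205 to 422 bp in the WT and NKO experiment and over 1000 bp windows in the other experiments, so levels are compared only within an experiment. No H3K27ac region was assigned to Irak1. Among macrophage marker genes, Cd68 and Itgam had an H3K27ac region at their starts in all 3 experiments and Adgre1 and Lyz2 in the 2 with 1000 bp windows. Of 5 markers of other cell types, 4 (Cd3e, Cd79a, Epcam and Ly6g) had no region and Pecam1 had 1 in the WT and NKO experiment. The markers were chosen after the values were seen and the regions were defined in such cells. The marker regions are therefore a description and do not test the identity of the cells. The tables hold no RNA, and the deletion of NCoR or Pgc1b was not checked here. The study itself shows an immunoblot of PGC1b protein in BMDMs of both Pgc1b genotypes.

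In WT cells 4 of the 19 regions tested gained H3K27ac after KLA, where 6.49% of all regions did. The Irak3 promoter rose from 55.5 and 58.1 to 185 and 199.9 tags per 10 M (log2 change 1.76 ± 0.19, adjusted p 1.7e-09). The Myd88 promoter rose from 44.1 and 48.4 to 91.8 and 107 (1.10 ± 0.22, adjusted p 0.000298), a call that was lost with TMM scaling. Irak3 +3.8 kb (2.13 ± 0.65) and Irak2 +25 kb (1.35 ± 0.39) were the others. In each of the 4 regions the WT KLA libraries lay above the WT Veh libraries, which a call makes likely. Without Veh replicate 2, 2 of the regions were called, and without KLA replicate 2 the Irak3 promoter was the 1 called.

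In NKO cells 2 of the 19 regions rose after KLA (2.75% of all regions did) and 1 fell (7.96%). The Irak3 promoter went from 44.2 and 81.3 to 174 and 183 (log2 change 1.48 ± 0.19) and the Myd88 promoter from 43.5 and 46.4 to 86.0 and 101 (1.05 ± 0.23). Traf1 -15.6 kb fell from 38.3 and 33.7 to 12.2 and 14.6 (-1.43 ± 0.40, adjusted p 0.0096). None of the 19 regions was called between NKO and WT, with Veh or with KLA, nor in the interaction of genotype and KLA, by edgeR, by DESeq2 or with TMM scaling. Over all regions 1%, 0.789% and 0.697% were called in these comparisons. At an unadjusted p under 0.05, without the fold limit, there were 5 with Veh, 2 with KLA and 5 in the interaction. The share of all regions at that looser threshold is not given here, so these counts have no background beside them. The interaction at the Irak3 promoter was -0.28 ± 0.27 and at the Myd88 promoter -0.05 ± 0.32. At Ticam2 -1.9 kb the groups moved in opposite directions, from 27.7 and 14.3 to 13.2 and 8.27 in WT and from 8.11 and 12.8 to 21.8 and 20.1 in NKO, but the interaction of 1.93 ± 0.68 did not pass the test (adjusted p 0.169). At Traf1 -15.6 kb, which fell in NKO cells, the WT libraries overlapped and the interaction was -1.43 ± 0.54 (adjusted p 0.205).

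In the experiment with RGFP966, KLA with DMSO raised 4 of 19 windows (6.73% of all windows) and lowered 1 (28.1%), and TMM scaling gave 5 higher and 0 lower. The median over all windows was -0.42 on the log2 scale with library totals, so rises stand against a general fall. The Myd88 promoter rose from 205 and 204 to 762 and 561 (log2 change 1.69 ± 0.20, adjusted p 2.37e-16). Irak2 +6.5 kb rose from 139 and 156 to 702 and 581 (2.12 ± 0.20, adjusted p 1.11e-23), the window upstream of the Irak3 start from 87.2 and 88.1 to 349 and 311 (1.91 ± 0.22), and Irak3 +11.7 kb from 78.9 and 87.2 to 306 and 262 (1.78 ± 0.22). Myd88 +5.6 kb fell from 76.4 and 93.3 to 46.0 and 35.3 (-1.05 ± 0.26), not with TMM scaling.

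With RGFP966 added to KLA, 3 of the 19 windows were higher than with KLA and DMSO (26.9% of all windows) and 3 were lower (9.53%), or 1 and 3 with TMM scaling. The Myd88 promoter fell from 762 and 561 to 334 and 308 (log2 change -1.04 ± 0.19, adjusted p 3.3e-07), still above the DMSO Veh libraries at 205 and 204. The Irak2 promoter fell from 183 and 147 to 82.9 and 74.5 (-1.07 ± 0.23) and the Irak4 promoter from 201 and 168 to 96.1 and 70.5 (-1.15 ± 0.22). Irak2 +6.5 kb and Irak3 +11.7 kb, which had risen with KLA, stood at 446 and 415 (-0.58 ± 0.19) and at 251 and 199 (-0.34 ± 0.20) with RGFP966, neither called. Myd88 +5.6 kb rose from 46.0 and 35.3 to 111 and 111 (1.43 ± 0.25, adjusted p 1.18e-07). Traf3 -6.2 kb (1.04 ± 0.21) and Irak3 +3.8 kb (1.03 ± 0.29) were higher as well, but not with TMM scaling. The comparisons with Veh and with RGFP966 share the KLA libraries in DMSO. Without RGFP966 replicate 2, 2 of the windows were called. The change at the Myd88 promoter was -0.99 without that library and -0.80 without DMSO KLA replicate 1, both under the 2-fold limit.

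**Figure D4:**
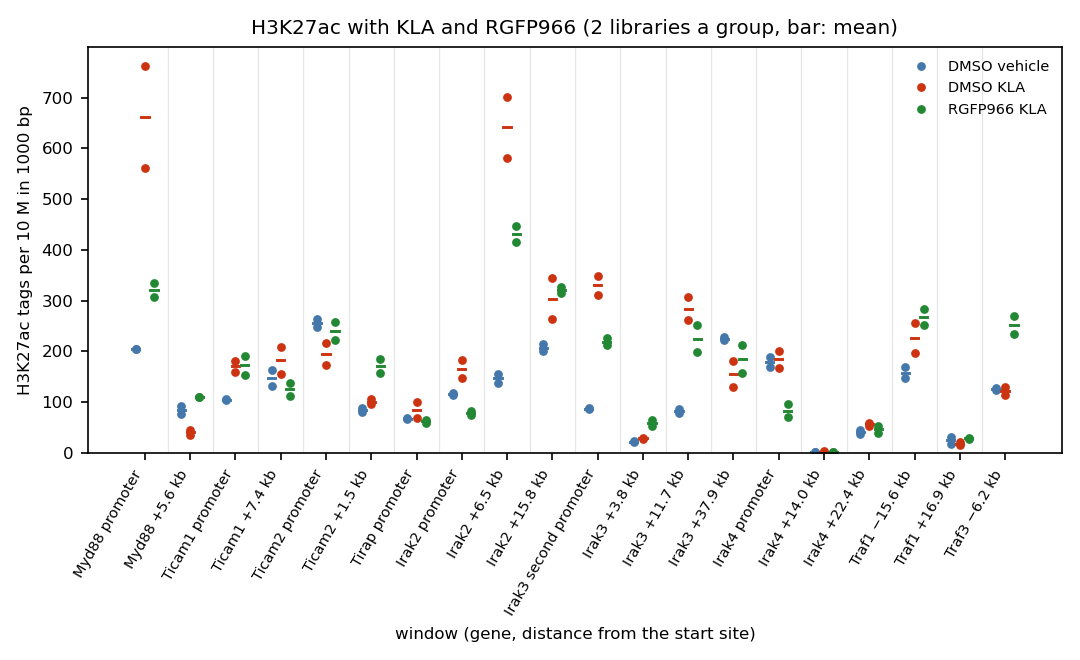
H3K27ac tags per 10 M in 1000 bp windows of the 10 genes in the DMSO Veh, DMSO KLA and RGFP966 KLA libraries (2 points a group, with a bar at their mean). The Myd88 promoter stands at 205 and 204, 762 and 561, and 334 and 308 in the 3 groups.

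In Pgc1b flox/flox cells without Cre, KLA raised 5 of 19 windows (5.22% of all windows) and lowered 1 (25.6%), or 8 and 0 with TMM scaling, with a median over all windows of -0.45. Irak2 +6.5 kb rose from 101 and 112 to 507 and 516 (log2 change 2.27 ± 0.10), the Myd88 promoter from 241 and 247 to 638 and 694 (1.45 ± 0.08) and Irak3 +11.7 kb from 48.3 and 77.6 to 206 and 250.0 (1.88 ± 0.16). In cells with Cre, 4 windows rose (4.18% of all) and 3 fell (32.5%), or 5 and 2 with TMM scaling. Irak2 +6.5 kb then went from 129.7 and 126 to 474 and 428 (1.82 ± 0.10), the Myd88 promoter from 213 and 221 to 552 and 522 (1.31 ± 0.09) and Irak3 +11.7 kb from 64.2 and 61.0 to 128 and 154 (1.17 ± 0.17).

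Between the Pgc1b genotypes, no window was called with Veh, by edgeR, by DESeq2 or with TMM scaling (0.397% of all windows were called). With Veh 4 windows had an unadjusted p under 0.05, a looser threshold whose share of all windows is not given here. With KLA 1 window was lower in cells with Cre (6.81% of all windows), and the interaction of genotype and KLA called the same window (4.6%). It was Irak3 +37.9 kb, at 261 and 234 in flox Veh, 206 and 161 in flox KLA, 246 and 212 in Cre Veh and 70.1 and 78.8 in Cre KLA. The KLA libraries with Cre were below all others, with a difference from flox KLA of -1.30 ± 0.14 (adjusted p 1.44e-17) and an interaction of -1.18 ± 0.19 (adjusted p 1.14e-08). The median over the 19 windows was -0.55 between the genotypes with KLA (-0.38 over all windows) and -0.38 for the interaction (-0.18 over all windows). At an unadjusted p under 0.05, without the fold limit, there were 15 of the 19 windows with KLA and 9 in the interaction. The share of all windows at that threshold is not given here, so these counts have no background beside them. The share of tags in regions was 22% to 22.4% in Cre KLA and 29.9% to 30.1% in flox KLA. Whether the counts follow from this shift over all windows was not tested. With TMM scaling neither call at Irak3 +37.9 kb was kept. Without flox KLA replicate 1 the interaction at this window was -1.0 (adjusted p 7.48e-05), just under the 2-fold limit. The interaction counted 3 windows without flox Veh replicate 2 and 2 without Cre Veh or Cre KLA replicate 2, and the genotypes with KLA differed in 3 without Cre KLA replicate 2. Irak3 +11.7 kb was lower with Cre and KLA by -0.69 ± 0.14 and the Myd88 promoter by -0.31 ± 0.07, both under the 2-fold limit.

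**Figure D5:**
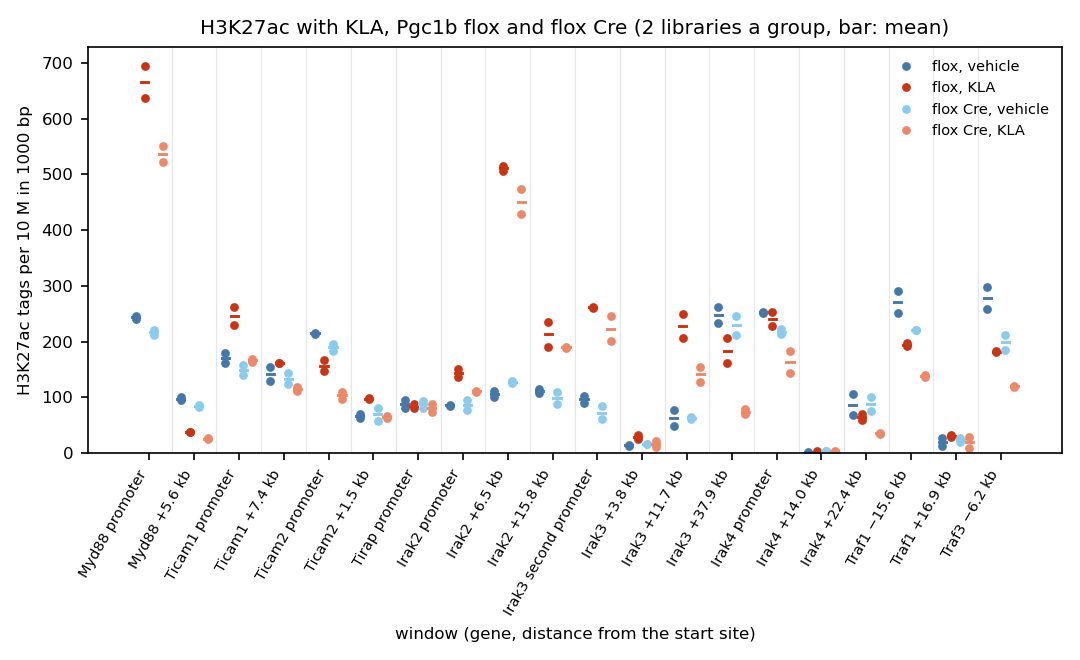
H3K27ac tags per 10 M in 1000 bp windows of the 10 genes in Pgc1b flox/flox cells with and without Cre, with Veh or KLA (2 points a group, with a bar at their mean). At Irak3 +37.9 kb the Cre KLA points, 70.1 and 78.8, lie below the other 6 libraries.

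PGC1b was profiled again in cells given DMSO, where KLA raised 14 of 47 regions (16.4% of all regions) at 4 of the 10 genes. Irak3 +10.2 kb rose from 5.69 and 0 to 94.7 and 125 (log2 change 4.91 ± 0.65, adjusted p 9.29e-06) and Traf1 +7.9 kb from 1.62 and 4.37 to 98.7 and 106 (5.18 ± 0.57, adjusted p 8.79e-07). Irak3 +24.2 kb rose from 2.44 and 0 to 103 and 77.4, and Ticam2 -1.9 kb from 23.6 and 24.8 to 101 and 116 (2.16 ± 0.41). With TMM scaling 8 regions were called, and without either DMSO Veh library 9. With the ERK inhibitor added to KLA no region of the 10 genes was called, by edgeR, by DESeq2 or with TMM scaling (0.286% of all regions were called). Of the 47 regions, 3 had an unadjusted p under 0.05, a looser threshold whose share of all regions is not given here. Traf1 +7.9 kb had 124 and 122 with the inhibitor (0.26 ± 0.38 against DMSO KLA) and Irak3 +10.2 kb 105 and 54.3 (-0.48 ± 0.47). The largest difference named was at Irak3 +24.2 kb, from 103 and 77.4 to 11 and 20.7 (-2.48 ± 0.63), with an adjusted p of 0.0785.

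For NCoR, the ERK inhibitor with KLA was set against KLA alone. The labels name no DMSO for these KLA libraries, whereas PGC1b had KLA with DMSO, so the controls of the 2 proteins are unlike. Of 54 regions, 26 were lower (48.6% of all regions) and none was higher, with a median log2 change of -1.07 against -1.20 over all regions. The libraries with the inhibitor held 15% to 15.8% of their tags in regions and those with KLA 33.3% to 34.2%, and they carry another library date in the labels, so batch and inhibitor cannot be told apart. With TMM scaling 2 regions were called, Irak3 +10.2 kb and the Traf3 promoter. With library totals 13 and 12 were called without KLA replicate 1 and 2, and 17 without ERKi replicate 2. At Irak3 +10.2 kb the values were 201 and 191 with KLA and 46.5 and 37.1 with the inhibitor (-2.23 ± 0.30, adjusted p 0.00016). At the Traf3 promoter they were 177 and 153 with KLA and 28.7 and 33.6 with the inhibitor (-2.40 ± 0.28, adjusted p 8.38e-05). Ticam2 -1.9 kb kept the most tags among the called regions, at 336 and 325 with KLA and 128 and 150.0 with the inhibitor (-1.25 ± 0.20). The KLA libraries are the same that were set against Veh above.

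In osteoclast precursors differentiated with RANKL, whose labels give day 0 and day 4, p300 was higher at day 4 in 4 of 10 regions (62.2% of all regions). With TMM scaling none was higher and Traf1 +22.7 kb was called lower. Traf1 -1.3 kb went from 14.1 and 6.39 to 117 and 94.1 (log2 change 3.21 ± 0.47, adjusted p 0.000339) and Irak2 +6.5 kb from 9.67 and 6.39 to 64.5 and 85.1 (3.11 ± 0.54). Traf1 +3.5 kb (2.88 ± 0.81) and Traf3 -6.2 kb (1.44 ± 0.43) were the others. Without day 0 replicate 2 there were 7 called, and without either day 4 library 2. The day 0 libraries held 3.08% to 3.16% of their tags in regions and the day 4 libraries 9.53% to 9.61%, and the median over all regions was 1.84. For ERK1 none of 11 regions was called between the days, by edgeR, by DESeq2 or with TMM scaling (2.35% of all regions were called). Of the 11, 5 had an unadjusted p under 0.05, a looser threshold whose share of all regions is not given here. The largest ERK1 differences were at Myd88, from 4.30 and 5.25 to 21.8 and 21.5 at +3.7 kb (2.15 ± 0.83) and from 11.2 and 8.41 to 51.3 and 31.1 at +5.6 kb (2.04 ± 0.67).

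Library totals ran from 4.30 to 21.5 M tags, and 2.79% to 52.8% of tags lay in the tabulated regions. The share of tags in regions overlapped between the groups compared for NCoR, HDAC3, Fosl2 and PGC1b after KLA, for RGFP966 and for NKO against WT with KLA. In the other comparisons it did not overlap: beside those given above, it went from 8.43% to 9.22% up to 10.1% to 11.1% for ERK1 after KLA and from 2.79% to 2.98% up to 4.50% to 6.46% for ERK1 between the days. For PGC1b in DMSO it was 16.9% to 21.4% with Veh, 26.6% to 28.1% with KLA and 23.4% to 24.7% with the ERK inhibitor. For H3K27ac it was 35.8% to 35.9% in flox Veh, 29.9% to 30.1% in flox KLA, 30.9% to 31.6% in Cre Veh and 22% to 22.4% in Cre KLA, and 30.6% to 31.5% in DMSO Veh against 22.9% to 27.9% in DMSO KLA. In the WT and NKO experiment it was 5.55% to 5.66% in WT Veh, 6.20% to 6.70% in WT KLA, 6.55% to 7.18% in NKO Veh and 6.20% to 6.25% in NKO KLA. The part of these shifts in the calls was not tested beyond the TMM values shown.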

How the data were processed

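ChIP-seq tags were counted by the authors per region: the deposited counts are raw HOMER tags, at most 3 per position, in regions merged over the libraries of a table, after Bowtie2 alignment to mm10 (versions not given in the sources used here). Library totals (4.30 to 21.5 M tags) came from the column headers, and counting error is smallest where a region holds many tags. The 10 genes and the lists were chosen with earlier results of these data known, and the cell markers after the values were seen. Of 538 regions of the 10 genes, 508 lay within 10 bp of the distance to the start that the RefSeq GRCm38 annotation gives, and no region passed a chromosome end.

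Each table was fitted whole with the quasi-likelihood F-test of edgeR 4.0.16 (R 4.3.3, two-sided), using library totals, over factor regions with at least 4 tags in 1 library and H3K27ac regions with at least 16. Calls needed a Benjamini-Hochberg adjusted p under 0.05 and over a 2-fold change. The script was tested on simulated data. Alternatives were TMM scaling, DESeq2 1.42.0, no filter, a replicate block, each library left out, and other joining distances. TMM values beside the results come from these fits. Where 1 group is at 0 tags, bounds assume 3 tags per library.

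Regions were named by rule: in each table a gene's strongest region within 2 kb of its start and its strongest beyond, the called region with the lowest p in each direction, and the site with the most factors called. Other regions were counted, or are named because their values were seen to differ. Samples were grouped by their titles. The second ERK1 library of day 4 carries another replicate number in its description. Replicate numbers did not pair the samples: the correlations of same-numbered libraries ran from -0.027 to 0.088 over 23 comparisons. The 30 input libraries were not analysed here. No sequence of Ticam2 is shown.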

Additional observations from a re-analysis of the deposited data

Results flagged for a closer look

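With library totals, the response of H3K27ac to KLA differed between Pgc1b flox/flox cells with and without Cre at Irak3 +37.9 kb, by the test of the interaction. The interaction was -1.18 ± 0.19 on the log2 scale (adjusted p 1.14e-08, quasi-likelihood test of edgeR). Of the 19 windows of the 10 genes 1 was called (5.26%), near the 4.6% of all windows. With Cre both KLA libraries, 70.1 and 78.8 tags per 10 M, lay below both Veh libraries, 246 and 212, and without Cre the KLA libraries, 206 and 161, lay below the Veh libraries, 261 and 234, so the direction was shared and the size differed. DESeq2 also called the window, and TMM scaling and the fit without flox KLA replicate 1 did not. The share of tags in regions was 22% to 22.4% in Cre KLA and 29.9% to 30.1% in flox KLA.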

How the results depend on the processing

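Of 243 calls over all comparisons, 144 were present in every fit with 1 library left out, 176 with TMM scaling, 177 with DESeq2 and 230 with the replicate block, and the cause of the losses was not tested. With TMM scaling the number of called regions of the 10 genes changed from 11 to 17 for Fosl2, from 14 to 8 for PGC1b in DMSO, from 26 to 2 for NCoR with the ERK inhibitor, from 4 to 1 for p300 between the days, and from 1 to 0 for both the Pgc1b genotypes with KLA and their interaction. DESeq2 gave 17 for Fosl2, 9 for PGC1b in DMSO and 4 for NCoR with the ERK inhibitor, 3 lower and 1 higher. It gave 0 for p300 between the days, 2 for H3K27ac in WT cells and 0 for the Pgc1b genotypes with KLA. The 515 changes followed here were, in each comparison, a gene's strongest region within 2 kb of its start, its strongest beyond, and every called region. Omitting the filter changed no call among them. Under TMM scaling 313 of the 515 stayed called in the same direction or, where not called, moved by less than their error, and under DESeq2 314 did.

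Among the called changes, 6 turned direction with TMM scaling and 7 with DESeq2, and among those not called 64 and 65 changed sign. For NCoR with the ERK inhibitor, TMM scaling and DESeq2 gave log2 changes of 0.12 and 0.13 at Traf3 -6.2 kb, 0.026 and 0.040 at the Ticam2 promoter, 0.15 and 0.17 at Traf1 -18.0 kb and 0.077 and 0.090 at Irak2 +25 kb, and DESeq2 gave 0.0088 at Traf1 +3.5 kb. At Traf3 -6.2 kb they gave -0.17 and -0.090 for p300 between the days and -0.18 and -0.15 for p65 after KLA.

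With 1 library left out, the called regions numbered 11 to 22 for NCoR, 15 to 33 for HDAC3, 37 to 44 for p65, 0 to 20 for Fosl2, 3 to 5 for PU.1, 10 to 16 for PGC1b, 3 to 7 for ERK1 and 34 to 43 for p300 after KLA. They numbered 9 to 14 for PGC1b in DMSO, 12 to 30 for NCoR with the ERK inhibitor and 2 to 7 for p300 between the days. For H3K27ac they numbered 1 to 4 in WT and 2 to 3 in NKO cells, 4 to 5 in DMSO, 2 to 6 with RGFP966, 5 to 7 in flox and 7 to 8 in Cre cells, and 1 to 3 for both the genotypes with KLA and their interaction. Each leave-one-out fit assumes that the lone library of a group varies like the others. Calls present in every such fit numbered 10 of 18 for NCoR, 13 of 27 for HDAC3, 36 of 43 for p65 and 33 of 42 for p300.

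Same-numbered libraries did not deviate together, so the replicate block is given only here. With the block as a term 5 Fosl2 regions were called in place of 11. Of the 515 changes followed, 13 lost their call, while 4 that were not called changed sign. Regions with few tags, such as those at 0 to 3 per library with Veh, give folds with wide error at this depth.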

Other observations

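Of 21 other genes of the pathway, among them the ubiquitin ligases Traf6 and Peli1, the kinases Tbk1, Ikbke and Map3k7 and the scaffold Tank, all had a region in at least 1 of the factor tables. The list was chosen with earlier results of these data known, and shares in parentheses are those of all regions of the table. After KLA, p65 rose in 115 of 172 regions (57%) and fell in 9 (5.43%), and p300 rose in 91 of 192 (42.1%) and fell in 16 (12.9%). HDAC3 rose in 54 of 154 (27.5%) and fell in 13 (11.3%), and NCoR rose in 49 of 159 (23.4%) and fell in 23 (16.7%). PGC1b rose in 33 of 133 (16.4%) and fell in 9 (6.35%), and Fosl2 rose in 19 of 100 (11.4%) and fell in 3 (4.19%). ERK1 rose in 16 of 91 (10.3%) and fell in 2 (2.53%), and PU.1 rose in 16 of 146 (4.53%) and fell in 18 (21.7%). The NCoR falls lay at 9 genes, among them Map3k7, Ripk1 and Traf5, and the rises at 11, among them Peli1, Tank and Traf2. With the ERK inhibitor and KLA, PGC1b rose in 1 of 153 regions, at Peli1 (0.108%). NCoR fell in 77 of 170 (48.6%) and rose in 2 (0.634%), at Ikbke and Peli1. H3K27ac rose in 6 of 52 regions in WT cells after KLA (6.49%) and fell in 2 (3.72%).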
